A study of Pyrus communis with 12 samples.

Results

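The genes described here are those whose transcript level dropped out of the range of the earlier stages at the last of 4 harvesting stages of pear fruit. They were chosen on CPM, the count of a gene divided by the total count of its library and multiplied by 1000000. A member had to average at least 1 CPM in each of the stages H1, H2 and H3, and the highest of its 3 H4 libraries had to reach at most 0.5 times the lowest of its 9 libraries of H1 to H3. Of the 45217 genes in the table, 21228 reached the minimum level and 91 met the whole rule. Among these, 78 had counts above 0 in all 9 libraries of H1 to H3. The other 13 had no count in at least 1 of these 9 libraries and none in H4, and they met the rule only because both of the values compared were 0. The 78 and the 13 are therefore described separately.

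Fruit of the European pear Pyrus communis cv. Abate Fetel were picked in harvest weeks 1 (H1), 2 (H2), 3 (H3) and 4 (H4), and RNA of the peeled flesh was sequenced from 3 biological replicates per stage. All fruit came from the same orchard without any treatment, and within each stage fruit with a similar index of chlorophyll absorbance were selected, so that the stages stand for selected classes of fruit and for different picking dates at the same time. The interval between H2 and H3 was the longest of the 3 intervals. The identifiers are those of the pear gene models used by the study. The study's supplement pairs 66 of the 91 members with RefSeq transcripts, but it gives no names with them and 0 of these transcripts are in the RefSeq gene table used here. Apart from 1 gene that the paper names, the members are therefore given by identifier without a role, and the labelled tissue was not checked against marker genes.

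Pear is a climacteric fruit, in which a burst of the hormone ethylene coordinates ripening. In European pear this burst takes place mostly after harvest and in many cultivars only after a cold period, while on the tree the flesh already softens slowly and loses chlorophyll. Along this transition the genes for ethylene synthesis, the degradation of pectin in the cell wall and the formation of aroma esters are known to become active, whereas transcripts that belong to fruit growth decline.

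The libraries held 7776419 to 10675582 counts, and 3 counts corresponded to 0.281 to 0.386 CPM. The H4 libraries were the deepest, with at least 9587843 counts. Replicates of a stage varied beyond counting noise, so none was treated as a repeat of another. All 91 members passed the filter of the test between stages, for which 23155 genes had at least 1 CPM in at least 3 libraries. The median difference between H4 and H3 over these 23155 genes was -0.08 on the scale of log2(CPM + 1), so that part of the distance between these stages was common to most genes. With the TMM scaling of edgeR, which removes such a shift, 72 genes met the rule, 59 of them with counts above 0 in all 9 earlier libraries. In RNA from whole tissue, fewer cells of a type and less RNA per cell cannot be told apart.

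Together the 91 members held 3575, 3620 and 3489 CPM in the H1 libraries, 2948, 2834 and 2760 CPM in H2, 2010, 2053 and 2006 CPM in H3, and 727, 650 and 673 CPM in H4. These sums decreased at each stage and the libraries of H1, H2 and H3 did not overlap. That the H4 libraries lay below all others follows from the rule, for the sums and for every member above 0. A single gene, PCP029231, held 1870, 1969 and 1687 CPM of them in H1. Without it, the 78 members above 0 summed to 1579 to 1586 CPM in H1, 1545 to 1589 CPM in H2, 1026 to 1086 CPM in H3 and 340 to 359 CPM in H4. The sum of these other 77 thus overlapped between H1 and H2, and its libraries in H3 lay below, as did those in H4 by the rule.

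**Figure D1:**
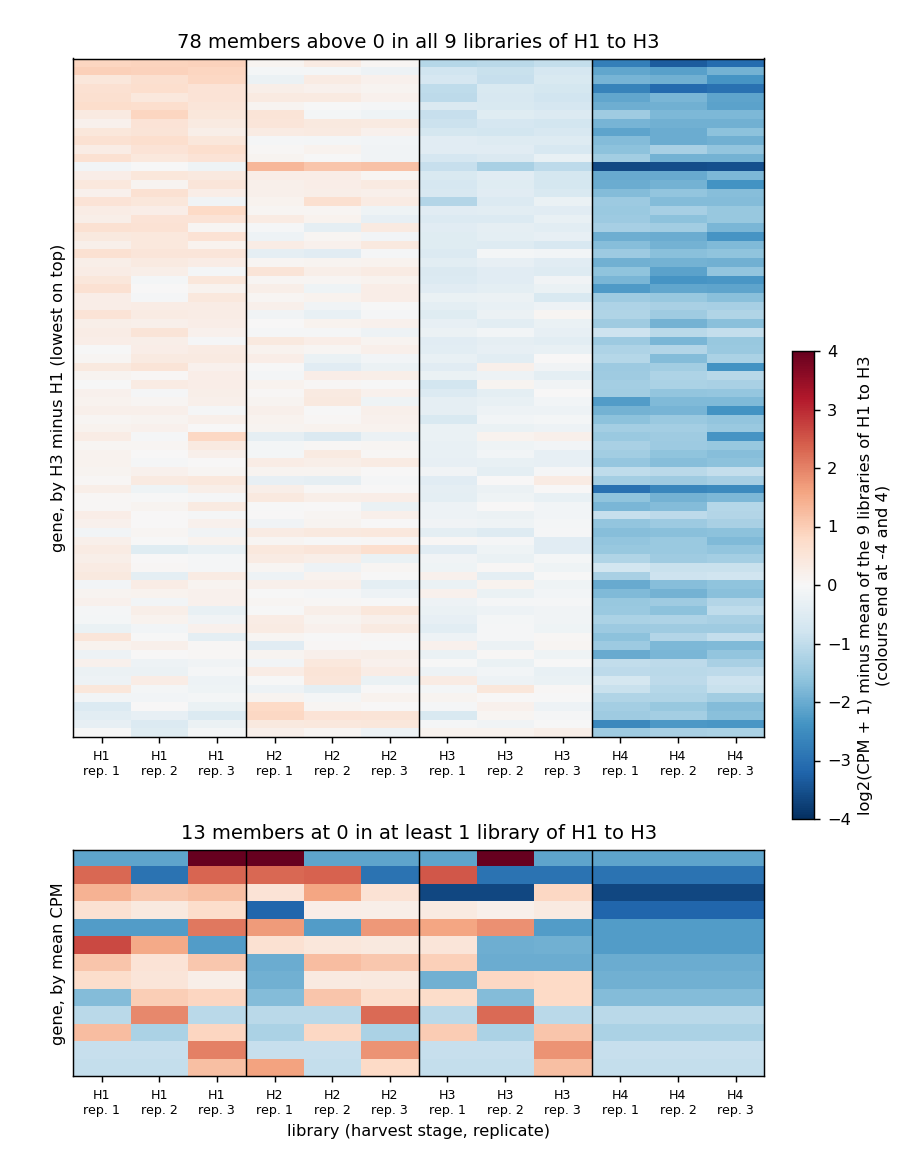
Level of each member in each of the 12 libraries, as log2(CPM + 1) minus the mean of the 9 libraries of H1 to H3, with 1 row per gene and 1 column per library; blue stands for lower and red for higher levels. In the upper panel the 78 members are blue in all H4 libraries and pale in most earlier ones, with the H3 libraries below the H1 libraries in the upper rows. In the lower panel the 13 members at 0 in some library alternate between replicates of one stage.

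The contrast of H4 with the earlier stages chose the members, and its values are given as a description. Over the 78 members the fold of the H3 mean over the H4 mean ranged from 2.28 to 13.6 with a median of 3.27, and it was at least 5 in 13 of them. The ratio of the highest H4 library to the lowest earlier library ranged from 0.094 to 0.499, with a median of 0.431. In 5 members it was at most 0.25. The threshold lay in a dense region of this ratio, with 28 genes over 0.45 and up to 0.5 and 47 genes over 0.5 and up to 0.55. The members just inside it were PCP021489 (0.499), PCP026350 (0.497), PCP025011 (0.496), PCP023373 (0.495) and PCP019982 (0.493). Just outside were PCP003478 (0.501), PCP000489 (0.506), PCP015633 (0.507), PCP020841 and PCP003894 (both 0.511). As an example from each side of the limit, PCP019982 averaged 78.8, 81.3, 35.4 and 15.6 CPM and PCP000489 averaged 54.4, 52.9, 41.3 and 16.7 CPM in H1, H2, H3 and H4.

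**Figure D2:**
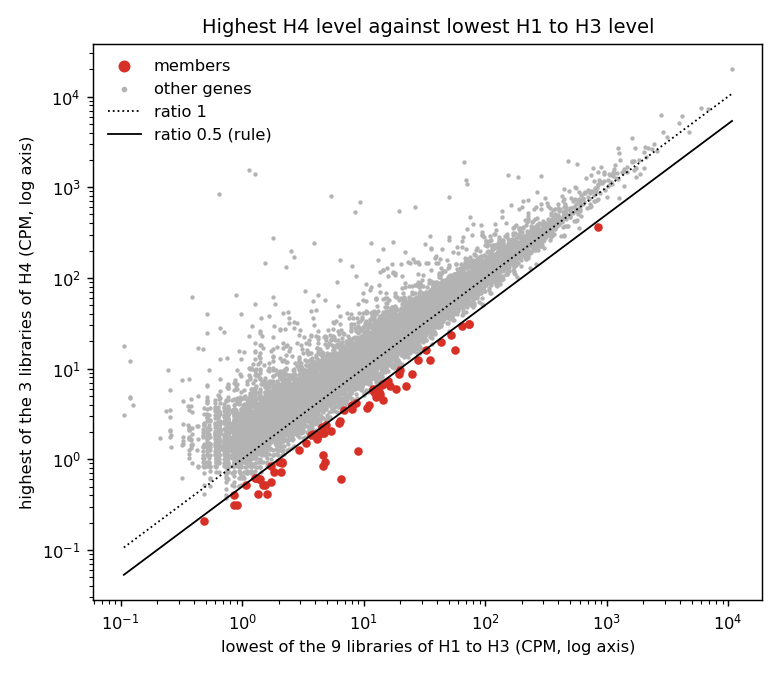
Highest of the 3 H4 libraries (vertical axis) against the lowest of the 9 libraries of H1 to H3 (horizontal axis), both in CPM on log axes, for genes with a mean of at least 1 CPM in H1, H2 and H3 and with both values above 0. Red points are the 78 members, grey points the other genes, and the solid line the ratio of 0.5 set by the rule; the single red point at the upper right is PCP029231.

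The members were mostly genes of low or intermediate abundance. Over the 9 libraries of H1 to H3 the 78 averaged from 1.22 to 1294 CPM with a median of 9.28 CPM, against a median of 14.9 CPM over the genes tested. 2 of them exceeded 100 CPM, 38 had at least 10 CPM and 22 were under 5 CPM. The replicates were more variable than those of the genes above 0 in all 9 libraries with at least 1 CPM per stage. The median coefficient of variation was 11.7, 9.78, 10.7 and 16.6% in H1, H2, H3 and H4 for the members, against 10.6, 7.74, 8.02 and 8.23% for these genes. The sets were not matched for abundance, and the median H4 mean of the 78 members was 1.97 CPM. Few counts raise this coefficient by themselves, so that variability and abundance cannot be told apart here. H4 replicate 1 was the highest of the 3 H4 libraries in 35 of the 78 members (44.9%), against 37.3% of the genes tested with a count in H4, and without this library 149 genes above 0 met the rule, or 178 with those at 0. Leaving out H4 replicate 2 or 3 gave 145 and 137 genes in all. A rule on the highest of fewer libraries can only admit more genes.

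PCP029231 was by far the most abundant member. After the H1 values given above, it had 1206, 1164 and 1135 CPM in H2, 897, 854 and 866 CPM in H3, and 368, 310 and 327 CPM in H4. The libraries of H1, H2 and H3 did not overlap, and with a mean of 1294 CPM over these stages the gene ranked above 99.8% of the genes tested. PCP020926, next in abundance, had 128, 145 and 140 CPM in H1, 128, 128 and 112 CPM in H2, 69.3, 76.1 and 64.8 CPM in H3, and 25.3, 25.3 and 29.6 CPM in H4. Its H1 and H2 libraries overlapped, while those of H3 lay below them, as did those of H4 by the rule.

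PCP010165, one of the 10 most abundant members, had 43.2, 43.5 and 44.5 CPM in H1, 51.2, 44.6 and 52.0 CPM in H2, 50.4, 47.7 and 46.8 CPM in H3, and 19.8, 19.9 and 17.2 CPM in H4. Its 9 earlier libraries lay between 43.2 and 52.0 CPM, and the 3 of H4 lay below them, as the rule requires. PCP031252 had means of 64.6 ± 3.8, 59.3 ± 4.9, 53.9 ± 2.2 and 21.1 ± 2.0 CPM (SD, n = 3 each) in H1, H2, H3 and H4.

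PCP005181 had its highest level in H2. Its libraries held 65.2, 56.7 and 70.1 CPM in H1, 110, 112 and 114 CPM in H2, 79.7, 74.9 and 82.4 CPM in H3, and 13.1, 15.9 and 15.7 CPM in H4. PCP005877 and PCP017219 peaked in H2 as well, the first with means of 96.3 ± 3.3, 119 ± 6.2, 79.0 ± 6.2 and 27.8 ± 3.1 CPM and the second with 95.8 ± 6.3, 115 ± 4.8, 75.0 ± 1.3 and 29.5 ± 1.7 CPM (SD, n = 3 each) in H1, H2, H3 and H4. The largest fold among the 78 belonged to another gene of this course, PCP026705. It had 15.9, 17.4 and 15.3 CPM in H1, 44.9, 39.0 and 40.2 CPM in H2, 8.68, 6.48 and 7.84 CPM in H3, and 0.521, 0.562 and 0.609 CPM in H4, which put the mean of H1 to H3 at 38.5 times the H4 mean.

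Other members were lower at each later stage. PCP000690 had 22.2, 22.6 and 23.3 CPM in H1, 12.7, 15.2 and 12.4 CPM in H2, 4.77, 5.10 and 5.58 CPM in H3, and 0.939, 0.281 and 0.508 CPM in H4, with no overlap between H1, H2 and H3. PCP002432 had 71.0, 74.1 and 68.2 CPM in H1, 54.5, 52.3 and 49.9 CPM in H2, 22.5, 29.7 and 28.4 CPM in H3, and 6.47, 4.50 and 4.97 CPM in H4. The H4 values of PCP000690 and PCP026705 rest on few counts per library, so that their folds are imprecise. PCP031273 was lower still, with means of 4.37 ± 0.31, 2.71 ± 0.34, 1.62 ± 0.36 and 0.14 ± 0.24 CPM (SD, n = 3 each) in H1, H2, H3 and H4. Its H4 libraries held only 4, 0 and 0 counts. None of its differences between H1, H2 and H3 passed the test described below (adjusted p = 0.0529 to 0.468 with edgeR).

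**Figure D3:**
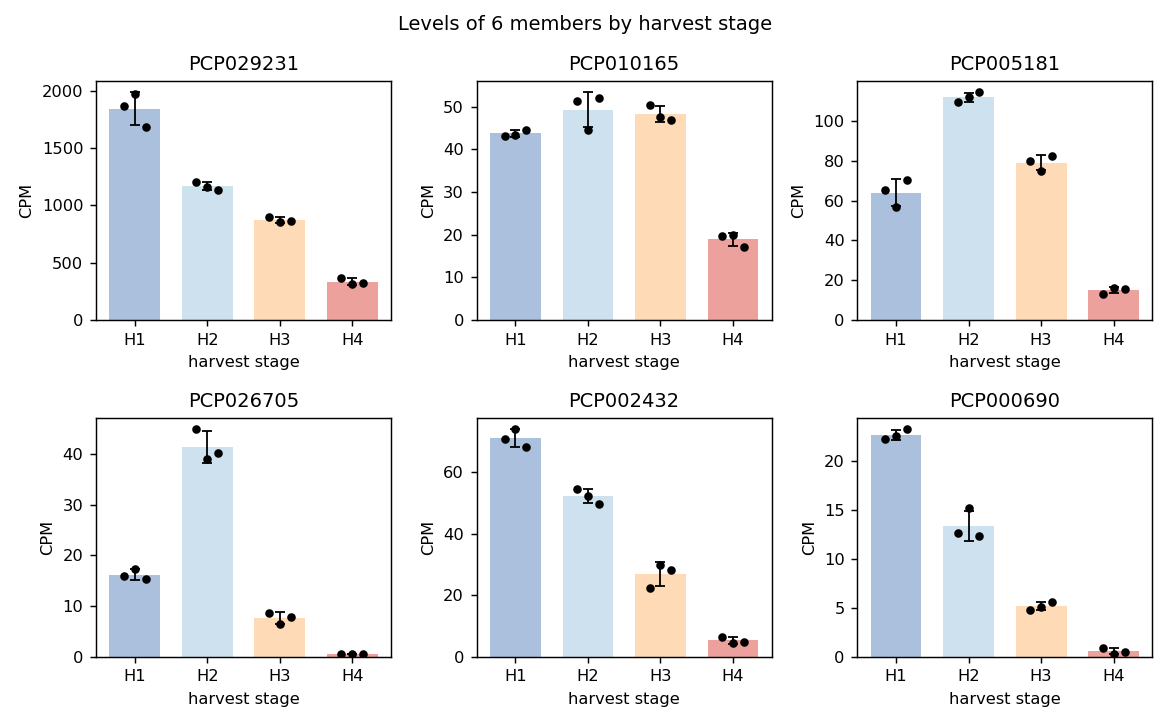
CPM of 6 members by harvest stage; points are the 3 libraries of a stage, bars their mean and error bars the SD. PCP029231, PCP002432 and PCP000690 decline at each stage, PCP005181 and PCP026705 are highest in H2, and PCP010165 is even until H3 and lower in H4.

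To see whether these genes had already begun to decline before H4, the stages H1, H2 and H3 were compared with one another by the quasi-likelihood test of edgeR on all 12 libraries. The rule sets no order among these 3 stages, but these comparisons use libraries that the rule used as well. It takes their lowest library, and so works against a gene that is low in any of them, in H1 as in H3. Genes with a Benjamini-Hochberg adjusted p-value under 0.05 over the 23155 genes are called here. The 3 comparisons share libraries pairwise and are given side by side, not as independent evidence of one another.

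Between H1 and H3, 34 of the 78 members fell and 1 rose, while 43 did not pass the test. Over the genes tested, 12% were called in this comparison, which divides into 5.18% lower and 6.79% higher in H3. The members called lower thus made up 43.6% of the 78 and 37.4% of the 91, as none of the 13 genes at 0 was called. The median log2 fold change of H3 over H1 was -0.46 over the 78 members, -0.41 over the 91 and 0.01 over the genes tested. It was negative in 72 of the 78. On the scale of log2(CPM + 1) the H3 mean was below the H1 mean in 92.3% of the 78 members and in 47.8% of the genes tested, and the difference was under -1 in 15.4% and 1.09% of them. Without H3 replicate 1, which gave the lowest count, 26 members were called in H3 against H1.

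**Figure D4:**
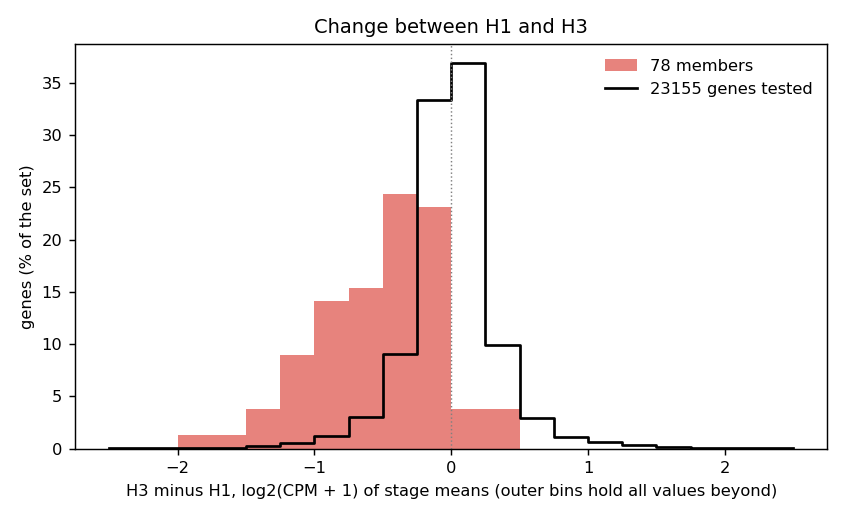
Difference of H3 minus H1 in log2(CPM + 1) of the stage means, as the percentage of the 78 members (red bars) and of the 23155 genes tested (black line) in bins of 0.25. The members lie mostly left of 0, with a median of -0.40, and the genes tested are centred on 0.01.

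Ranked by log2(CPM + 1), the 5 members with the strongest called fall included PCP000690, with 5.15 ± 0.41 CPM in H3 against 22.7 ± 0.54 CPM in H1 (SD, n = 3 each; log2 fold change -2.14, SE 0.17, adjusted p = 9.09e-06 with edgeR), and PCP021875, with 15.6 ± 1.2 CPM in H3 against 53.1 ± 1.7 CPM in H1 (log2 fold change -1.77, adjusted p = 1.06e-07 with edgeR). The other 3 were PCP009832 with 2.17 ± 0.42 CPM in H3 and 7.08 ± 0.65 CPM in H1, PCP045037 with 4.91 ± 0.69 CPM in H3 and 14.4 ± 2.0 CPM in H1, and PCP002432 with 26.9 ± 3.8 CPM in H3 and 71.1 ± 2.9 CPM in H1 (SD, n = 3 each). All 5 had all H3 libraries below all H1 libraries, which is no further evidence, since they were chosen for the largest falls. The share of such genes over all genes tested was not determined. By the log2 fold change of edgeR the less abundant PCP044141, named after its values were seen, came after PCP000690 and PCP021875 and before the other 3, with 1.26 ± 0.35 CPM in H3 against 4.24 ± 1.0 CPM in H1 (SD, n = 3 each; log2 fold change -1.75, SE 0.47, adjusted p = 0.0296 with edgeR). It was not called without H1 replicate 2 or any one of the H3 libraries (adjusted p = 0.0559 to 0.109 with edgeR), nor with the replicate number as a block (0.053). PCP029231 fell as well (log2 fold change -1.09, SE 0.06, adjusted p = 1.24e-06 with edgeR), as did PCP019982, PCP020926, PCP016180, PCP025011 and PCP026705 with log2 fold changes between -1.16 and -0.72.

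Smaller falls were called for PCP017219 (log2 fold change -0.36), PCP005877 (-0.29) and PCP031252 (-0.27). The calls of PCP005877 and PCP031252 were lost without H3 replicate 1, with -0.24 (adjusted p = 0.126 with edgeR) and -0.26 (adjusted p = 0.112 with edgeR), and without several other single libraries. The only rise was that of PCP005181, with 79.0 ± 3.8 CPM in H3 against 64.0 ± 6.8 CPM in H1 (SD, n = 3 each; log2 fold change 0.30, SE 0.08, adjusted p = 0.0316 with edgeR). It was not called without H1 replicate 1 or 2 or without H3 replicate 1 or 3, with adjusted p-values of 0.0695 to 0.101 from edgeR. PCP010165, at 48.3 ± 1.9 CPM in H3 and 43.7 ± 0.72 CPM in H1 (SD, n = 3 each), was not called (adjusted p = 0.32 with edgeR).

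Between H2 and H3, the longest interval, more members fell than between H1 and H2, though the difference between the 2 steps was not tested. Of the 78 members, 25 fell in H3 against H2 and none was called higher in H3 than in H2, also with DESeq2 and limma-voom. Over the genes tested 5.34% were called, 2.36% lower and 2.98% higher. The median log2 fold change of H3 over H2 was -0.46 over the 78 members. The largest change was that of PCP026705, with 7.67 ± 1.1 CPM in H3 against 41.3 ± 3.1 CPM in H2 (SD, n = 3 each; log2 fold change -2.43, SE 0.11, adjusted p = 3.72e-07 with edgeR). PCP019982 reached 35.4 ± 2.4 CPM in H3 against 81.3 ± 4.4 CPM in H2 (SD, n = 3 each; log2 fold change -1.20, adjusted p = 2.69e-05 with edgeR), after H2 and H1 means of 81.3 and 78.8 CPM that were not called different (adjusted p = 0.889 with edgeR).

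Between H1 and H2 the members moved in both directions, with 7 higher and 7 lower in H2 (17.9% of the 78), while 7.1% of the genes tested were called, 3.94% higher and 3.17% lower. The median log2 fold change of H2 over H1 was -0.10 over the 78. PCP021875 fell to 25.4 ± 1.4 CPM in H2, against 53.1 ± 1.7 CPM in H1 (SD, n = 3 each; log2 fold change -1.07, SE 0.08, adjusted p = 6.81e-06 with edgeR), and PCP029231 fell to 1168 ± 36 CPM in H2, against 1842 ± 143 CPM in H1 (SD, n = 3 each; log2 fold change -0.66, adjusted p = 7.75e-05 with edgeR). PCP000690, PCP002432 and PCP025011 were also lower. PCP026705 rose to 41.3 ± 3.1 CPM in H2, against 16.2 ± 1.1 CPM in H1 (SD, n = 3 each; log2 fold change 1.34, SE 0.10, adjusted p = 1.22e-05 with edgeR), as did PCP026350 (log2 fold change 1.18, or 11.9 ± 1.5 CPM in H2 against 5.21 ± 0.47 CPM in H1), PCP005181 (0.80), PCP005877 (0.30) and PCP017219 (0.26). All 7 members that rose between H1 and H2 fell between H2 and H3, although the fall of PCP026350 was not called without H2 replicate 1 or 2 or H3 replicate 1 or 3 (adjusted p = 0.0518 to 0.0952 with edgeR). Both comparisons use the H2 libraries, so a high level in these by chance would favour both calls. The share of this course over all genes tested was not determined. The number of rises depended on single libraries. It was 4 without H1 replicate 2 or H2 replicate 2, and 3 without H1 replicate 3, H2 replicate 1 or H2 replicate 3, and the number of calls in both directions was 9 without H2 replicate 1 and 8 without H2 replicate 3. PCP005877 was not called without any one of the 6 libraries of H1 and H2, nor without H3 replicate 3 or H4 replicate 3 (adjusted p = 0.0539 to 0.165 with edgeR). Its call was also lost with the replicate number as a block (adjusted p = 0.0553 with edgeR). PCP017219 was not called without H1 replicate 2 or 3 or H2 replicate 1 or 3 (adjusted p = 0.0563 to 0.0896 with edgeR), nor in a fit of the 6 libraries of H1 and H2 alone (0.0807). The falls of PCP000690 and PCP002432 were not called without H2 replicate 3 (0.0555 and 0.0762), nor PCP000690 without H2 replicate 1 and PCP002432 without H2 replicate 2 (0.0534 and 0.0603).

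Of the 78 members, 40 were called at none of the 3 comparisons, 13 were called lower in H3 against both H2 and H1 with no call in H2 against H1, 5 were called lower at all 3 comparisons, 11 only in H3 against H1, 2 lower in H2 and H3 against H1 only, and the remaining 7 were those that rose in H2 against H1 and fell in H3 against H2. The shares of these patterns over all genes tested were not determined. The 34 members that had fallen by H3 were the more abundant ones, with median levels of 22.4, 20.2, 13.5 and 4.95 CPM in H1, H2, H3 and H4. The 43 without a call between H1 and H3 had medians of 6.02, 5.81, 5.88 and 1.42 CPM. Since more counts give the test more power, the abundance of the genes and the call cannot be told apart. The last step is described only by its values. The median fold of the H3 mean over the H4 mean was 2.82 for the 34 and 3.61 for the 43, while the median difference of H4 minus H3 in log2(CPM + 1), a scale that shrinks the changes of low genes, was -1.28 for the 34 and -1.23 for the 43.

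The stage means are described without a test. The H1 mean was the highest of H1 to H3 in 50 of the 78 members, the H2 mean in 26 and the H3 mean in 2, whereas over the genes tested the 3 stages were highest in 34.2, 31.1 and 34.7%. The means decreased from H1 over H2 to H3 in 44 members (56.4%), against 18.8% of the genes tested. In 19 members (24.4%) the H3 mean was under 0.5 times the H1 mean, a share that was not determined over the genes tested. The step from H3 to H4 accounted for a median of 75.5% of the log2 difference between H1 and H4, and for 50% or more in 73 of the 78. This share describes genes chosen for a low H4 level and is no measure of the step in other genes.

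The 13 members at 0 behaved in another way. Each had no count in at least 1 library of H1, H2 or H3 and at least 30 counts in another library of the same stage. PCP023540 is the clearest case, with 699 counts in H1 replicate 3, 599 in H2 replicate 1 and 682 in H3 replicate 2, and 0 in the other 9 libraries. PCP043116 had 284, 0 and 294 counts in the H1 libraries, 300, 298 and 0 in those of H2, 345, 0 and 0 in those of H3, and 0 in all H4 libraries. PCP018708 had 246, 232 and 217 counts in the H1 libraries, 140, 281 and 148 in those of H2, 0, 0 and 178 in those of H3, and again 0 in H4. A count of 0 allows up to 0.386 CPM in the shallowest library. In 12 of the 13 the lowest level above 0 in H1 to H3 was higher than this, at 2.38 CPM or more, and in PCP016914 it was 0.212 CPM, so that these genes had counts in some libraries of a stage and none in others.

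The only member named by the study is among them. The paper lists this gene as positively correlated with fruit firmness from a texture analyzer, a relation that was not examined here. PCP016914, annotated as a pectate lyase, an enzyme that cleaves the pectin of the cell wall, had 220, 116 and 0 counts in the H1 libraries, 51, 42 and 44 in those of H2, 46, 2 and 2 in those of H3, and 0 in all H4 libraries. The H1 libraries thus ranged from 0 to 220 counts, and none of its comparisons between H1, H2 and H3 was called (adjusted p = 0.208 for H3 against H1 with edgeR). Further genes of this kind were PCP027844, with 0 counts in 1 of the 9 earlier libraries, PCP038349, PCP023098, PCP014588, PCP002314, PCP044527, PCP033889, PCP017719 and PCP032855.

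This pattern was not particular to genes low in H4. Over all genes listed, 399 had no count in one library and at least 30 counts in another library of the same stage among H1, H2 and H3, and 247 of them averaged at least 1 CPM in each of these stages. Of the 247, 13 were at 0 in all H4 libraries and 85 had at least 30 counts in all of them. Among the 20850 genes with counts above 0 in all 9 earlier libraries and at least 1 CPM per stage, 0 were at 0 in all 3 H4 libraries. Genes at 0 in all libraries of one stage and with at least 1 CPM on average in each other stage numbered 14 for H1, 29 for H2, 16 for H3 and 13 for H4.

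For 4 of the 13 another gene showed the exact reverse, being above 0 in precisely those libraries where the member was at 0, with a sum of both that varied by at most 20% (coefficient of variation over the 12 libraries). This search over the 30839 genes with any count was made after the values were seen. PCP023540 and PCP036318 together held 74.3 ± 0.93 CPM in H4, against 84.8 ± 3.8, 74.0 ± 1.9 and 74.1 ± 1.7 CPM in H1, H2 and H3 (SD, n = 3 each). PCP027844 and PCP043142 together held 12.05 ± 0.70 CPM in H4, against 12.4 ± 1.4, 11.1 ± 2.4 and 10.2 ± 0.67 CPM in H1, H2 and H3. The sum of PCP002314 and PCP038364 was 4.89 ± 1.1 CPM in H4, against 4.96 ± 0.59, 4.99 ± 1.0 and 4.72 ± 0.18 CPM in the earlier stages, and that of PCP044527 and PCP002256 was 9.47 ± 0.73 CPM in H4, against 7.13 ± 0.94, 7.61 ± 1.3 and 8.59 ± 0.47 CPM. The limit on the variation of the sum covered the H4 libraries too, so that an even sum was a condition for these pairs and is no finding. Of the 247 genes of this kind in the table, 44 (17.8%) had such a counterpart. Without this limit, 11 of the 13 members and 214 of the 247 genes had at least 1 gene with the reverse pattern. Counts of genes with near-identical copies can be assigned to either entry, and whether the paired genes are similar in sequence was not tested, as no sequence was used here.

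**Figure D5:**
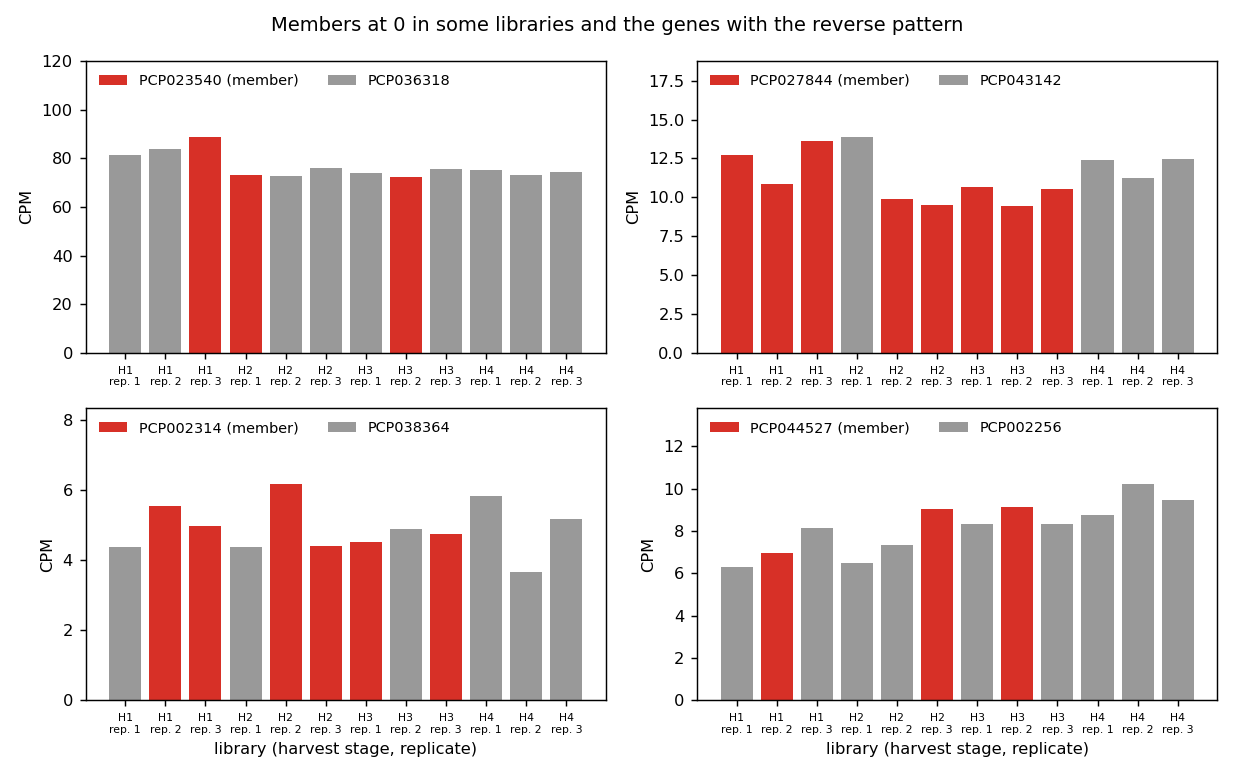
CPM by library of 4 members at 0 in some libraries (red) and of the gene with the reverse pattern (grey), stacked; replicates are ordered within the stages H1 to H4. In each library either the red or the grey gene has counts, and the pairs were chosen for an even height of the bars over all 12 libraries.

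The genes that the paper names for ethylene, auxin, cell wall, transcription factors and volatiles are listed here beside the members. The reference gene of the study is on this list as well. The members were chosen on these samples too, so neither set is a background for the other. The study chose this list on these same samples, so its directions are not independent evidence. Of its 42 genes 38 were tested and 1, the pectate lyase PCP016914, is a member. Between H1 and H3, 13 rose and 5 fell, between H1 and H2 9 rose and 1 fell, and between H2 and H3 6 rose and 2 fell, where the members gave 1 rise and 34 falls, 7 rises and 7 falls, and 0 rises and 25 falls. Over the genes tested, 6.79% were called higher and 5.18% lower in H3 than in H1. For H2 against H1 these shares were 3.94% and 3.17%, and for H3 against H2 they were 2.98% and 2.36%. The median log2 fold change of H3 over H1 was 0.21 over the 38 listed genes.

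By role, 4 of the 10 ethylene genes tested rose between H1 and H3 and none fell (0 of 10), 4 of the 9 auxin genes rose and 2 fell, 2 of the 8 cell wall genes rose and 1 fell, 1 of the 6 transcription factor genes rose and 2 fell, and 2 of the 4 volatile genes rose. The cell wall gene that fell was the COBRA-like PCP011926, which the paper names among transcription factors and which is counted under cell wall here. The median log2 fold changes of H3 over H1 in these roles were 0.57, 0.47, -0.20, -0.69 and 1.62. The alcohol acyltransferase AAT (PCP024687), which forms the esters of pear aroma, averaged 28.4, 82.6, 136 and 531 CPM in H1, H2, H3 and H4, and the polygalacturonase PG (PCP006771), which degrades pectin, averaged 1.19, 10.01, 86.4 and 801 CPM. Both rose in H2 over H1 (adjusted p = 0.00017 for AAT and 0.000115 for PG with edgeR) and in H3 over H2 (0.015 and 1.52e-06). Among the listed genes that were tested and had counts in H4, the lowest H4 means relative to the earlier stages were those of 2 expansin-like genes. PCP039813 averaged 3.15, 2.01, 1.58 and 0.79 CPM and PCP023195 2.14, 1.61, 0.44 and 0.33 CPM in H1, H2, H3 and H4. Neither was a member, and neither was called between H1 and H3 (adjusted p = 0.0738 and 0.069 with edgeR). The ERF1 gene PCP015040 and the AP2 ethylene response factor PCP016390 had no count in H4 but were too low in the earlier stages to be tested, with stage means of at most 1.36 and 0.909 CPM. The auxin carrier gene PIN3 (PCP021016), which exports auxin from cells, averaged 5.66, 4.53, 3.33 and 2.14 CPM and fell between H1 and H3 (log2 fold change -0.77, adjusted p = 0.0409 with edgeR), but its highest H4 library was at 0.842 times its lowest earlier one. The reference gene of the study, PCP030439, averaged 44.0, 41.6, 42.6 and 36.2 CPM in H1, H2, H3 and H4. It was not called between H1, H2 and H3, and its highest H4 library was at 0.93 times its lowest earlier one.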

How the data were processed

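RNA from peeled pear flesh gave 12 single-end libraries, 3 for each of H1, H2, H3 and H4. The authors used HISAT2 for alignment to the pear genome and StringTie for quantification, and the versions and the genome build are not given in the sources used here. The values deposited by the authors are raw read counts for every gene in every library, although the table is named for FPKM. The table also holds 4 columns with a score per stage, the authors' mean of the 3 libraries, which equalled the mean computed here within 0.001 counts and were not used. The labels describe non-directional libraries, in which a gene and an overlapping or antisense one share reads, and they give another kit, sequencer and read length than the paper.

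Stages were taken from the labels. CPM used the column sums, and members were found by the rule given above. Counts were tested with edgeR 4.0.16 in R 4.3.3 (scaling by TMM, at least 1 CPM in at least 3 libraries, quasi-likelihood test, 12 libraries in one model with a term per stage, Benjamini-Hochberg adjustment over 23155 genes). The SE, taken as |log2 fold change| over the root of the F statistic, is approximate. The biological coefficient of variation was 13%. DESeq2 1.42.0, limma 3.58.1, other filters, scalings, pseudocounts and libraries were alternatives. A positive log2 fold change means a higher level at the later stage. On simulated data for H3 against H1, with 200 of 23155 genes changed 2-fold, edgeR found 93% with 9 false calls, DESeq2 89% with 16 and limma-voom 91% with 10. The changed genes were not drawn from those with the lowest counts, and all genes had the same biological coefficient of variation. These percentages therefore do not hold for members with few counts or with smaller changes. Tables and figures used Python 3.11.15, pandas 2.3.3 and matplotlib 3.10.9.

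Named are the member with a gene name in the paper, the 10 most abundant members, the 10 with the largest ratio of H1 to H3 over H4 (an H4 stage with at most 3 counts in each library set at 3), the 5 genes on each side of the threshold nearest to it, and among the members called between H1 and H3 the 5 largest falls and up to 5 rises in log2(CPM + 1). The other genes at 0, the genes paired with them and PCP044141 were named after their values were seen. The members, the lists and the tests were chosen with earlier results of these data known. The gene table of RefSeq (assembly drPyrComm1.1) matched 0 of the identifiers, so that lists by gene description, cell type markers and sequences are not reported here. P-values measure the spread between the replicates, which the study calls biological.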

Additional observations from a re-analysis of the deposited data

How the results depend on the processing

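The number of members was 91 (78 above 0). It was 51 (46) with a minimum of 5 CPM, 18 (5) with a ratio of 0.25 and 540 (117) without a minimum, and leaving out one library gave 90 to 178 (79 to 149). The median of H4 minus H3 in log2(CPM + 1) over the 91 members was -1.31, and it was -1.24 with TMM and with median-ratio scaling, -1.61 with a pseudocount of 0.25 CPM, -1.25 over the 78 (a set chosen after seeing the data) and -1.34 to -1.25 without one library. With one library left out, 26 to 38 members were called between H1 and H3 (26 to 37 lower and 0 to 1 higher), 21 to 26 between H2 and H3 and 8 to 14 between H1 and H2 (5 to 8 lower and 3 to 7 higher). With the 6 libraries of the comparison alone, 0 members were called higher in H3 than in H1. The other alternatives, among them DESeq2 and limma-voom, left these counts within 1.5 times, and restricting them to the 78 changed none. Of 39 calls of genes named by the rule, 30 were kept under every alternative run, and none reversed in 819 refits. The remaining 9 were lost in 43 refits. With the replicate number as a block, 32 members were called between H1 and H3, 25 between H2 and H3 and 12 between H1 and H2, and the calls of PCP005877 in H2 against H1 and of PCP044141 in H3 against H1 were lost (adjusted p = 0.0553 and 0.053 with edgeR). The numbers were not taken as pairs, since only 4 of 18 pairs with the same number correlated above 0.1. Pairs with the same number ranged from -0.04 to 0.24 and those with different numbers from -0.17 to 0.09, replicate 2 of H1, H3 and H4 correlated at 0.12 to 0.24, and 7 of 12 libraries correlated best with their own number, which is a hint from the data and not from the design. The cause of these differences was not tested. Members with few counts in H4, such as PCP026705, limit the precision of the folds.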
